A study of Rattus norvegicus with 70 samples.

Results

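Thyroid hormone action was followed through 8 genes that activate, carry, sense or answer the hormone: Dio1, Dio2, Slc16a10, Ttr, Thra, Thrb, Klf9 and Thrsp. They were taken by symbol from the deposited count table, in which each occurs in a single row, and are 8 of 17048 rows. The tissue came from Sprague-Dawley rats at postnatal day 63. Their dams received vehicle, bisphenol A (BPA) at 500 mg/kg/day, or a mixture (Mix) with the same total of 500 mg/kg/day made of 160 mg/kg/day BPA, 160 mg/kg/day bisphenol F (BPF) and 180 mg/kg/day bisphenol S (BPS), by mouth between gestational day 6 and lactation day 6. The pups then received what their dam had received, at 250 mg/kg/day, from postnatal day 7 to 63. Liver, kidney and thyroid of both sexes, testis and ovary gave 70 libraries, 3 for each treatment, organ and sex, except female kidney with 2 vehicle, 2 BPA and 3 Mix libraries. Dams kept 3 pups of each sex and the labels give no litter, so littermates may sit in a group, and p-values measure the spread between these samples only. The same rats gave several organs, and no test sets organs against each other.

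The thyroid secretes mainly the prohormone thyroxine. Deiodinases remove an iodine from it to form the active triiodothyronine, which binds nuclear receptors that repress target genes without hormone and activate them with it. Dio1 encodes the deiodinase of liver, kidney and thyroid, is itself a target of the hormone and serves as a readout of hormone status in rat liver, and Dio2 encodes the high-affinity activating deiodinase of brain, pituitary and brown fat. Slc16a10 encodes a membrane transporter of aromatic amino acids and thyroid hormones, and Ttr encodes transthyretin, a plasma carrier of thyroxine and retinol-binding protein made by hepatocytes and the choroid plexus. Thra and Thrb encode the receptors, of which the Thrb product dominates in liver. Klf9 is a transcription factor gene induced by thyroid hormone and also by glucocorticoids, and Thrsp (Spot 14) is a hormone-responsive gene of lipid synthesis in liver and fat. BPA joins its phenol rings by an isopropylidene bridge, BPF by a methylene bridge and BPS by a sulfonyl bridge.

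The RefSeq promoter table (build GRCr8) held all 8 genes. The 250 bases before the annotated start are shown for the 3 genes that the liver and kidney results turn on, because Dio1 and Thrsp were low in the same treated female livers while Klf9 was not. Capitals mark the CCAAT box on either strand, and the windows are chr5:127319785-127320034 on the minus strand, chr1:161138965-161139214 on the minus strand and chr1:230126396-230126645 on the plus strand, all printed 5′ to 3′ in the direction of the gene.
Dio1: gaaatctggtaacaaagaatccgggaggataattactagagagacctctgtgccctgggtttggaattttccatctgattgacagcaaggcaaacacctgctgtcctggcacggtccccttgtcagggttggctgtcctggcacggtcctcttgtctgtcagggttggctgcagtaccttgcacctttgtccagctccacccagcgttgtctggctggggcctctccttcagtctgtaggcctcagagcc
Thrsp: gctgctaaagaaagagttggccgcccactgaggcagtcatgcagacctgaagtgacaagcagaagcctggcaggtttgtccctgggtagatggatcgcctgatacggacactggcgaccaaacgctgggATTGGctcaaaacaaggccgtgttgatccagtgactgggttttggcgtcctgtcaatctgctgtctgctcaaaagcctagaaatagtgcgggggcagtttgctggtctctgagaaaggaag
Klf9: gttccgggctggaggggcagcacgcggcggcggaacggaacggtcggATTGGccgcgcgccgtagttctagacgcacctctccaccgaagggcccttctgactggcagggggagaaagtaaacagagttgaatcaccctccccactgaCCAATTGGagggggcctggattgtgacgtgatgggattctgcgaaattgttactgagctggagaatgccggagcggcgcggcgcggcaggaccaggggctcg
The Klf9 window held the box 3 times, 2 of them overlapping on opposite strands, the Thrsp window held it 1 time and the Dio1 window held none. Of 33469 promoter windows of this length, 34.0% held it. The consensus half-site of thyroid hormone receptors (AGGTCA) was in 14.1% of the windows on either strand and in none of these 3. The window of the member Slc16a10, not shown, held it, beginning 241 bases before the annotated start. The E-box was searched as well, with the letters CACGTG, and was in 5.59% of windows and in none of the 3 shown. The direct repeat of the half-site spaced by 4 bases was in 1 window of all (0.00299%). These are matches of letters in a short window and say nothing about binding.

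Each library was a QuantSeq 3′ mRNA library, which counts transcripts from their 3′ ends, with 4803807 to 10929957 counts. Levels are CPM, counts relative to library size, scaled within each organ and sex by TMM, edgeR's trimmed-mean factor. A difference was called at an adjusted p below 0.05 in edgeR's quasi-likelihood test, with Benjamini-Hochberg adjustment over all genes of the comparison, and ± after a log2 value is its standard error. The labelled organs held their own markers: summed over each list, hepatocyte markers reached at least 91920 CPM in liver, proximal tubule markers 10210 in kidney, follicle markers 28120 in thyroid and germ cell markers 52340 in testis. Thyroid libraries also held parathyroid markers at 12870 to 82700 CPM. Germ cell markers ran from 16.0 to 17890 CPM in male BPA thyroid, 43.6 to 774 in male vehicle and 20.2 to 33.8 in male Mix thyroid. In female vehicle thyroid they ran from 4.40 to 4195 CPM. The part of germ cell RNA in the thyroid values below was not tested. All marker sums are CPM over the library total without TMM scaling, whereas single genes are on the TMM scale. Replicate numbers name libraries within an organ and sex, and those of vehicle and BPA female kidney stand for other rats than in the other female organs. The share of counts on ribosomal RNA genes averaged 2.58% in male vehicle kidney, 30.2% in male BPA kidney and 1.63% against 17.3% in female thyroid under vehicle and Mix.

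In vehicle rats each gene had its own distribution over the organs. Dio1 was at 432 ± 199 CPM in thyroid (SD, n = 6), 328 ± 77.6 in kidney (n = 5) and 149 ± 38.9 in liver (n = 6), and under 1.80 CPM in each testis and ovary library. The ranges of thyroid and kidney overlapped, as did those of kidney and liver. Dio2 was near the limit of detection everywhere, highest in testis at 0.990 ± 0.449 CPM (n = 3), with 5 of 6 vehicle livers and 3 of 5 vehicle kidneys at 0. The depth of the libraries puts a count of 3 at about 0.3 to 0.6 CPM.

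**Figure D1:**
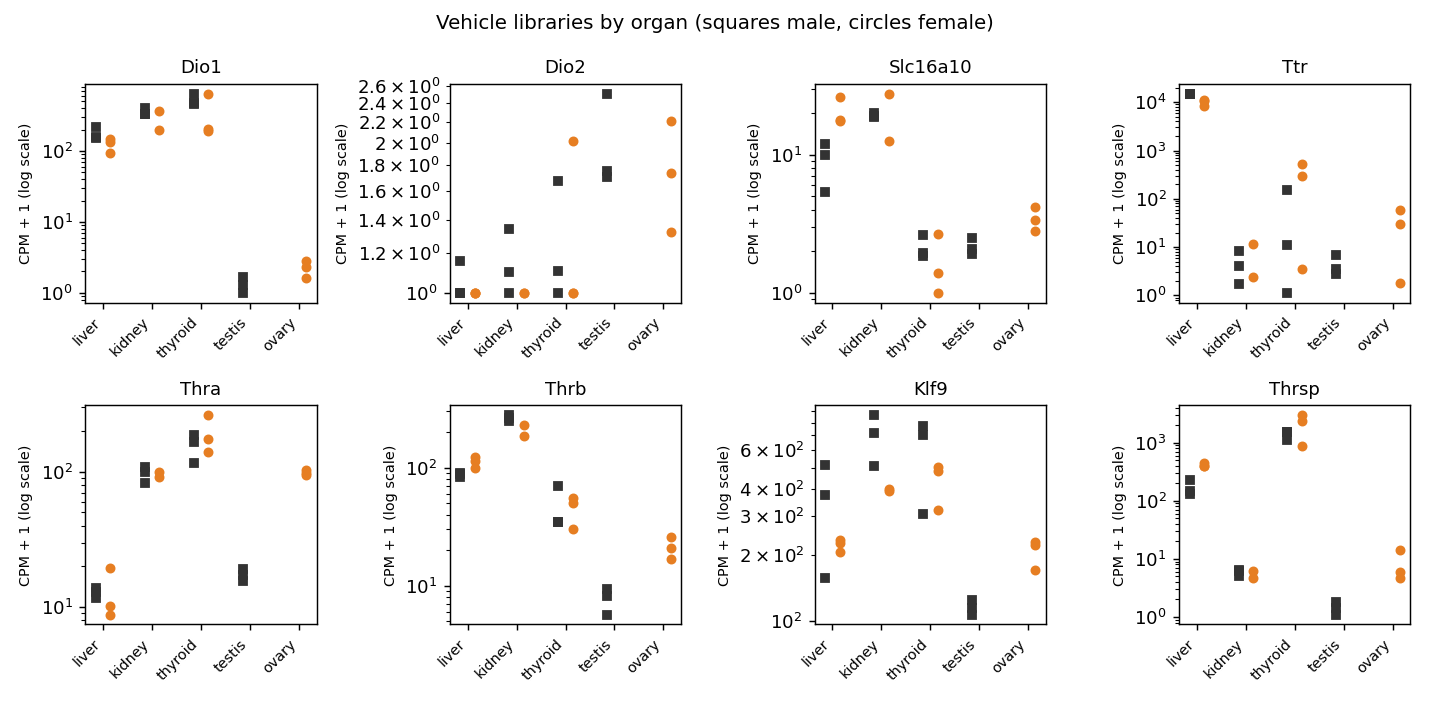
Level of the 8 genes in every vehicle library, as CPM + 1 on a log axis, by organ (squares male, circles female, each point 1 rat). Ttr in liver lies at 8541 to 15090 CPM, Thrsp is highest in thyroid at 867 to 2962 CPM, and Dio2 stays below 1.6 CPM.

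The receptor genes had different highest organs. Thrb was highest in kidney at 240 ± 35.5 CPM, followed by liver at 98.5 ± 15.5, thyroid at 44.9 ± 15.4, ovary at 20.1 ± 4.62 and testis at 6.74 ± 1.86, and no neighbours in this order overlapped. Thra was highest in thyroid at 172 ± 49.2 CPM, near 95 to 97 CPM in kidney and ovary, and lowest in testis at 16.3 ± 1.80 and liver at 11.9 ± 3.77. Kidney and ovary overlapped, as did testis and liver. Slc16a10 was at 18.7 ± 5.38 CPM in kidney and 13.8 ± 7.24 in liver, with overlapping ranges, and at most 3.17 CPM in the other vehicle organs. Klf9 was at 576 ± 208 CPM in kidney, 515 ± 193 in thyroid, 284 ± 133 in liver, 206 ± 32.1 in ovary and 115 ± 8.84 in testis, where only the step from ovary to testis was free of overlap. Thrsp was at 1722 ± 785 CPM in thyroid and 292 ± 139 in liver, against 7.39 ± 5.27 in ovary, 4.67 ± 0.778 in kidney and 0.443 ± 0.348 in testis. Ttr stood at 12450 ± 2679 CPM in liver. Organs were scaled separately, so these levels are compared only broadly.

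Dio1, the hepatic deiodinase gene, was lower in the livers of treated rats of both sexes, and the female BPA difference passed the test. In female liver its vehicle libraries were at 145, 133 and 94.0 CPM, the BPA libraries at 61.0, 37.0 and 49.8 and the Mix libraries at 41.8, 74.1 and 76.6. Every treated female library lay below every vehicle library. With BPA Dio1 fell by 1.33 ± 0.27 on the log2 scale, to 0.397 of vehicle (95% interval of the log2 change -1.91 to -0.76, adjusted p = 0.0475), and it was the 1 member called of 7 tested, where 0.419% of all genes were called. With Mix the log2 difference was -0.95 ± 0.27 (adjusted p = 0.346, background 0.0523%). Fewer hepatocytes and less RNA per hepatocyte cannot be told apart in such samples.

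In male liver Dio1 was at 214, 155 and 152 CPM with vehicle, 142, 130 and 103 with BPA and 138.7, 127.6 and 116.3 with Mix. The treated males again all lay below the vehicle males, with log2 differences of -0.47 ± 0.20 for BPA (adjusted p = 0.611, background 0.228%) and -0.45 ± 0.20 for Mix (adjusted p = 0.726, background 0.321%). Ranges that did not overlap were common among all genes: 13.9% for BPA and 11.9% for Mix in male liver, 15.7% and 14.6% in female liver. Of the 7 members tested, 2, 3, 3 and 2 had such ranges in these comparisons. Shares of this kind were computed only against vehicle in liver and kidney. BPA and Mix were each set against the same vehicle rats. Over both sexes, with sex in the model, Dio1 fell with BPA by 0.90 ± 0.19 (interval -1.29 to -0.51, adjusted p = 0.0421), the 1 member called of 7, where 0.289% of genes were called. The Mix difference over both sexes was -0.71 ± 0.19 (interval -1.10 to -0.32, adjusted p = 0.313, background 0.0896%). The female effect of BPA minus the male effect was -0.85 ± 0.34 (adjusted p = 0.446, background 0.209%), and for Mix it was -0.51 ± 0.34 (adjusted p = 0.921, background 0.189%).

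**Figure D2:**
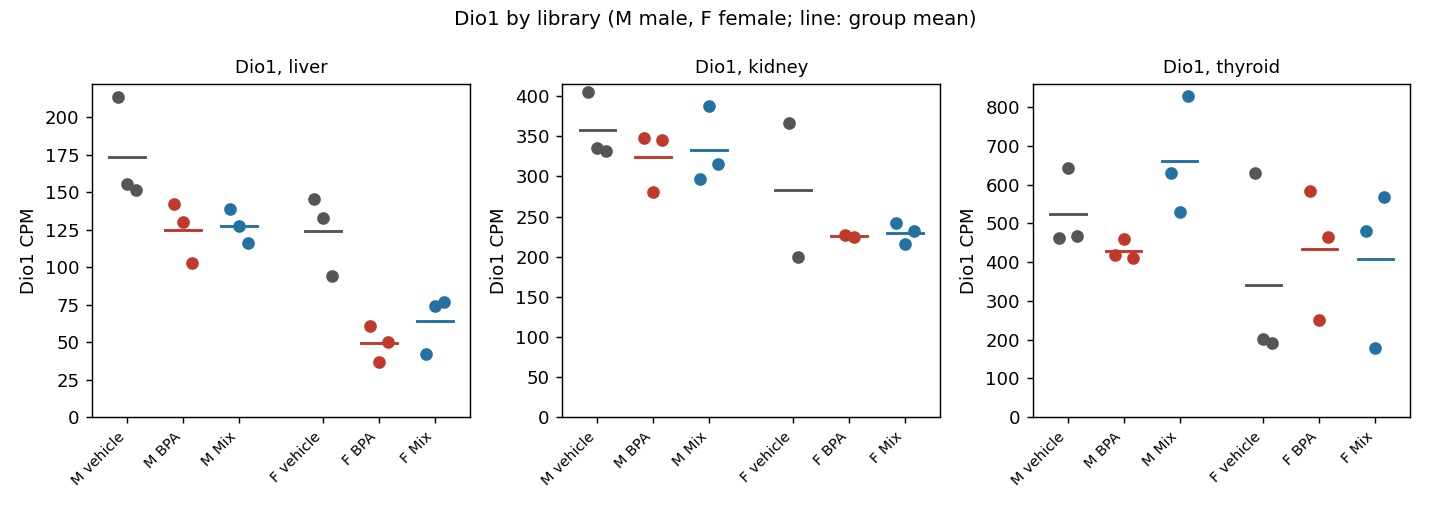
Dio1 CPM in each library of liver, kidney and thyroid (M male, F female), with a line at the group mean. In liver the 3 BPA and 3 Mix libraries lie below the 3 vehicle libraries in each sex, while in kidney the groups overlap.

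The female liver call was close to the threshold. It was lost without vehicle replicate 1 (adjusted p = 0.186), vehicle replicate 2 (0.192), BPA replicates 1, 2 or 3 (0.0590, 0.118 and 0.0890) or Mix replicates 2 or 3 (0.0677 and 0.0730), which share the estimate of the spread, while the log2 change stayed between -1.51 and -1.16. It was also lost with the replicate number as a block (0.0999), with the ribosomal share as covariate (0.0706) and with only the 2 groups compared (0.0834). The call over both sexes was lost in 11 of 18 fits without 1 library, with an adjusted p of up to 0.120 and a log2 change of -0.99 to -0.78: male vehicle 1, male BPA 2 and 3, male Mix 2 and 3, and each female vehicle and BPA rat.

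The summed hepatocyte markers, like Dio1, were lower in treated than in vehicle female liver. Their summed level over 10 markers, none at 0, was 134600 to 157500 CPM without TMM scaling with vehicle, 102900 to 106300 with BPA and 91920 to 130900 with Mix. Alb, the albumin gene, on the TMM scale like Dio1, was at 108100, 99760 and 86560 CPM with vehicle and 58820, 52390 and 53410 with BPA. At such levels Alb weighs heavily in the sum, which does not show whether the other markers fell. Ttr, also made by hepatocytes, overlapped, at 8541 to 11150 CPM with vehicle and 6756 to 10090 with BPA. In male liver, where Dio1 was also lower, the marker sum was 143000 to 158000 with vehicle, 153900 to 163400 with BPA and 148100 to 169100 with Mix. The part of these markers in the female result was not tested.

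In kidney Dio1 did not separate the groups. Male kidney vehicle libraries were at 406, 336 and 332 CPM, BPA at 348, 280 and 346 and Mix at 297, 387 and 315. Female kidney held 367 and 200 CPM with vehicle, 228 and 224 with BPA and 242, 215 and 232 with Mix. The kidney ranges overlapped, with log2 differences of -0.14 ± 0.17 (BPA) and -0.10 ± 0.17 (Mix) in males and -0.33 ± 0.27 and -0.30 ± 0.24 in females. In male thyroid Dio1 was at 461, 644 and 467 CPM with vehicle, 418, 461 and 411 with BPA and 630, 528 and 828 with Mix. The BPA libraries lay just below the vehicle libraries (-0.29 ± 0.21), and Mix was above BPA by 0.62 ± 0.22 (adjusted p = 0.304). Tg, the thyroglobulin gene of the follicle, was at 68930 to 103400 CPM with vehicle, 38790 to 64470 with BPA and 60860 to 80690 with Mix in the same libraries, and its part in the Dio1 values was not tested. Female thyroid ran from 190 to 631 CPM with vehicle, 251 to 583 with BPA and 177 to 567 with Mix.

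Dio2 passed the filter on low counts in testis alone. Its vehicle testes were at 0.756, 0.707 and 1.51 CPM, BPA testes at 2.16, 1.52 and 2.19 and Mix testes at 2.80, 1.40 and 2.66. The log2 differences were 0.98 ± 0.46 for BPA (adjusted p = 0.420) and 1.20 ± 0.46 for Mix (adjusted p = 0.877). Neither passed, nor did any of the 6 members tested in testis, where edgeR called no gene against vehicle (0% for BPA and 0% for Mix). At an unadjusted p below 0.05 there were 1337 of 11098 genes for BPA and 591 for Mix, with 1 member in each.

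Slc16a10, the transporter gene, differed by sex in vehicle liver. In vehicle kidney the sexes overlapped, at 17.7 to 19.2 CPM in males and 11.6 to 26.7 in females. In vehicle liver females were at 25.0, 16.7 and 16.6 CPM and males at 8.95, 10.9 and 4.41, without overlap. Females were higher by 1.17 ± 0.32 on the log2 scale (adjusted p = 0.0390), and Slc16a10 was 1 of 2 members called of 7 tested, where 4.23% of genes differed by sex. The call was lost without male vehicle 1 or 3 (adjusted p = 0.104 and 0.130), female vehicle 1, 2 or 3 (0.167, 0.0634 and 0.0581) or female Mix 1 or 2 (0.0509 for each). With BPA female liver was at 10.8, 22.5 and 14.7 CPM and with Mix at 25.7, 27.9 and 23.5. The Mix libraries all lay above the BPA libraries, by 0.68 ± 0.28 (adjusted p = 0.715). The share of all genes so separated was not computed for Mix against BPA. In male kidney the transporter was at 19.2, 18.2 and 17.7 CPM with vehicle, 23.4, 20.98 and 27.1 with BPA and 32.3, 29.7 and 17.9 with Mix. No kidney difference passed. In male thyroid it was at 1.61, 0.851 and 0.943 CPM with vehicle, 0.109, 0 and 0 with BPA and 0.940, 3.30 and 2.41 with Mix. The BPA libraries held at most a single count, so no fold is given (adjusted p = 0.586 against vehicle). Mix against BPA had an adjusted p of 0.304 there, and 0.0450 with DESeq2.

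Ttr in liver, where it is made, did not differ beyond the spread. Male liver was at 15090, 14640 and 14520 CPM with vehicle, 18290, 12850 and 12700 with BPA and 16540, 16420 and 11270 with Mix. Female liver was at 11150, 10760 and 8541 CPM with vehicle, 6756, 7795 and 10090 with BPA and 4754, 6472 and 9793 with Mix. The female log2 differences were -0.31 ± 0.26 for BPA (interval -0.87 to 0.26) and -0.53 ± 0.26 for Mix (interval -1.10 to 0.03), both groups overlapping vehicle.

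Outside liver Ttr was uneven between rats of a group. The ovary vehicle libraries were at 28.6, 56.9 and 0.816 CPM, BPA at 1.95, 2.42 and 0.304 and Mix at 9.997, 2.24 and 2.08. The lowest vehicle ovary lay within the BPA range. In the fit Ttr fell by 4.19 ± 1.09 on the log2 scale with BPA (adjusted p = 0.0395), the 1 member called of 6 tested, where 6.79% of genes were called. With Mix the difference was -2.57 ± 0.97 (adjusted p = 0.116, background 9.12%), and it passed without vehicle replicate 3 (0.0214). In the same vehicle ovaries the hepatocyte gene Alb was at 145, 232 and 2.12 CPM and the spermatid gene Tnp1, which an ovary does not express, at 222, 527 and 0.490 CPM. With BPA the ovaries held Alb at 1.26, 25.6 and 1.37 CPM and Tnp1 at 39.3, 0.519 and 3.80. The ovary's summed hepatocyte markers were 94.0 to 529 CPM with vehicle, 86.4 to 125 with BPA, where 1 of 10 was at 0, and 59.2 to 206 with Mix. The part of RNA of other organs in the call was not tested. The call was lost without vehicle replicate 1 (adjusted p = 0.0733), vehicle replicate 2 (0.155) or BPA replicates 1, 2 or 3 (0.0807, 0.107 and 0.149), and with the ribosomal share as a covariate (0.307).

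Female thyroid showed the same unevenness. Its vehicle libraries held Ttr at 519, 291 and 2.47 CPM with Alb at 2635, 881 and 56.1 and Tnp1 at 2752, 1564 and 0.137 CPM, whereas the treated libraries held Ttr at 0.564 to 11.3 CPM. The log2 differences were -5.93 ± 1.58 for BPA (adjusted p = 0.328) and -6.00 ± 1.59 for Mix (adjusted p = 0.0799). They passed with DESeq2 (adjusted p = 0.0131 and 0.00330) and without vehicle replicate 3 (0.0248 and 0.0211). In male thyroid vehicle replicate 3 alone stood out, with Ttr at 154 and Alb at 1042 CPM. Across libraries log2(CPM + 1) of Ttr and of Alb correlated with Pearson's r of 0.949 over 18 thyroids, 0.923 over 9 ovaries, 0.956 over 16 kidneys and 0.761 over 9 testes, as a description of points that share a library's depth.

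**Figure D3:**
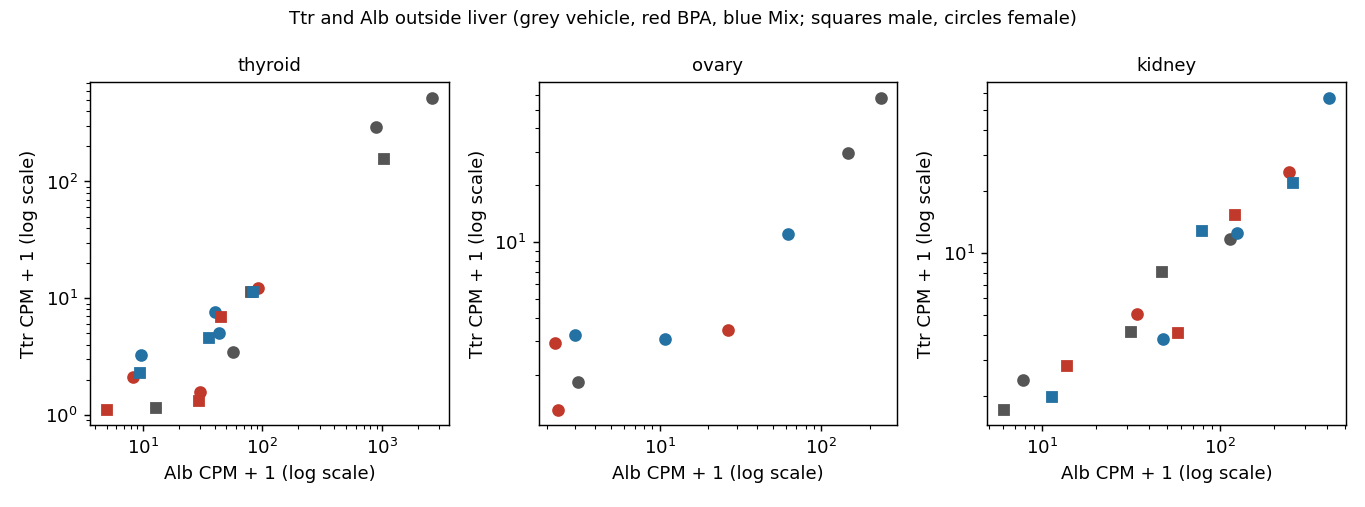
Ttr against Alb in each thyroid, ovary and kidney library, as CPM + 1 on log axes, by treatment and sex. In thyroid and ovary the libraries highest in Ttr (519, 291 and 154 CPM in thyroid, 56.9 and 28.6 in ovary) are the vehicle libraries highest in Alb.

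The receptor genes were not called in edgeR's test in any comparison with vehicle. Thra in male liver was at 12.0, 13.0 and 10.6 CPM with vehicle, 17.0, 11.5 and 17.1 with BPA and 27.1, 19.3 and 20.7 with Mix. The Mix males lay above all vehicle and BPA males, with a log2 difference from vehicle of 0.91 ± 0.24 (interval 0.40 to 1.41, adjusted p = 0.183). Thrb followed in the same livers at 81.8, 88.2 and 89.0 CPM with vehicle, 94.4, 107 and 93.4 with BPA and 143, 118 and 104 with Mix, a Mix difference of 0.50 ± 0.18 (adjusted p = 0.556). Female liver showed no such order. Thra there was at 9.30, 7.84 and 18.6 CPM with vehicle and 13.8, 8.68 and 6.21 with Mix. The female minus male effect of Mix was -1.23 ± 0.46 for Thra (adjusted p = 0.611) and -0.63 ± 0.29 for Thrb (adjusted p = 0.756).

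Thra in female thyroid was at 139, 173 and 259 CPM with vehicle, 153, 163 and 135 with BPA and 69.5, 72.1 and 88.8 with Mix. The Mix thyroids were lowest, at a log2 difference of -1.31 ± 0.26 (interval -1.88 to -0.74, adjusted p = 0.0725; background 0.00899%). The adjusted p was 0.00616 without vehicle replicate 1 and 0.000361 with DESeq2. The other alternatives, the ribosomal share as covariate among them, left the difference uncalled. The ribosomal share in those groups was 0.66% to 3.26% against 11.7% to 23.7%, the follicle marker sum 28120 to 55970 against 54180 to 78890 CPM, and the parathyroid marker sum 39110 to 41350 against 12870 to 37300 CPM, none of 9 and 3 markers at 0. The part of the marker sums was not tested. In male thyroid Thra was at 115 to 184 CPM with vehicle and 137 to 150 with Mix, overlapping. In ovary Thra was at 102, 93.3 and 97.3 CPM with vehicle, 125, 106 and 125 with BPA and 78.0, 78.6 and 82.7 with Mix. The 3 ovary groups did not overlap, BPA being highest and Mix lowest, and the share of all genes with such ranges was not computed for ovary. The Mix minus BPA difference was -0.57 ± 0.13 (interval -0.84 to -0.30, adjusted p = 0.0823, background 0.212%). Among the alternatives it passed with DESeq2 alone (adjusted p = 0.00349). In kidney Thra lay between 72.0 and 119 CPM and Thrb between 167 and 305 CPM over all groups, and no difference passed, although the BPA females (180 and 167 CPM) lay below the vehicle females (185 and 230) for Thrb.

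**Figure D4:**
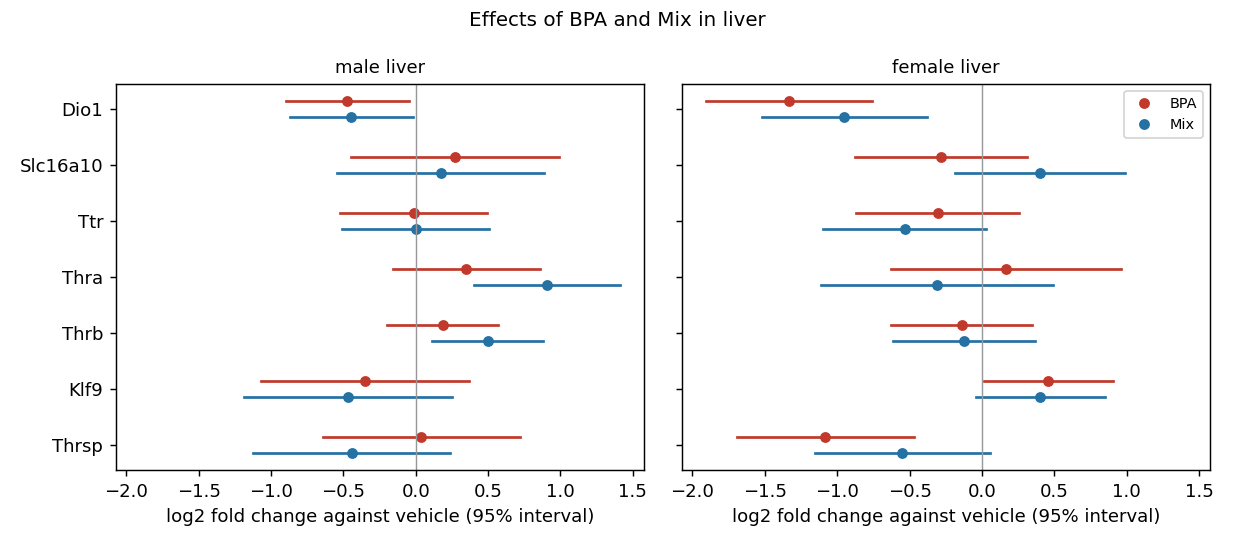
Log2 fold change against vehicle with its 95% interval for the 7 members tested in male and female liver (red BPA, blue Mix). Dio1 lies below 0 in all 4 comparisons, and of the 4 Thrsp values the lowest is that of females with BPA, at -1.08.

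Klf9, the transcription factor gene, lay on opposite sides of vehicle in the BPA kidneys of the sexes. Male kidney was at 863, 718 and 508 CPM with vehicle, 426, 464 and 428 with BPA and 521, 560 and 546 with Mix. Female kidney was at 400 and 389 CPM with vehicle, 655 and 543 with BPA and 670, 460 and 623 with Mix. All BPA males lay below, and all BPA females above, their vehicle rats. The log2 differences were -0.66 ± 0.19 in males (interval -1.08 to -0.25, adjusted p = 0.105, background 0.136%) and 0.60 ± 0.23 in females (interval 0.09 to 1.12, adjusted p = 0.253, background 0%). Neither passed by itself, but the female effect minus the male effect did, at 1.27 ± 0.31 (adjusted p = 0.0311), the 1 member called of 7 tested, where 4.73% of genes were called. Groups without overlap made up 34.7% of all genes for BPA in male kidney, 44.5% in female kidney, 16.1% for Mix in males and 27.1% for Mix in females. Of 7 members 2, 2, 0 and 1 were such.

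The ribosomal share separated the male groups, at 1.71% to 3.50% in vehicle and 16.4% to 37.2% in BPA kidney. In females it overlapped, at 19.2% to 37.1% in vehicle and 17.2% to 20.9% in BPA kidney. With that share as a covariate the difference between the sexes was 1.17 and no longer passed (adjusted p = 0.262). It was also lost without male vehicle replicate 1 or 2 (adjusted p = 0.0867 and 0.0575), male BPA replicate 1 or 2 (0.0610 and 0.0511), female vehicle replicate 2 (0.0918) or female BPA replicate 1 or 2 (0.101 and 0.0911). The male BPA difference passed with DESeq2 (adjusted p = 0.0188), with only the 2 groups compared (0.0384) and without male Mix replicate 1 (0.0487). Klf9 in female vehicle kidney differed from male by -0.74 ± 0.22 without passing (adjusted p = 0.0565, background 6.13%), and passed without male vehicle replicate 3 (0.0255), male Mix replicate 1 (0.0438) or female Mix replicate 2 (0.0471). For Mix the female minus male effect was 0.92 ± 0.29 (adjusted p = 0.358, background 0.00858%).

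**Figure D5:**
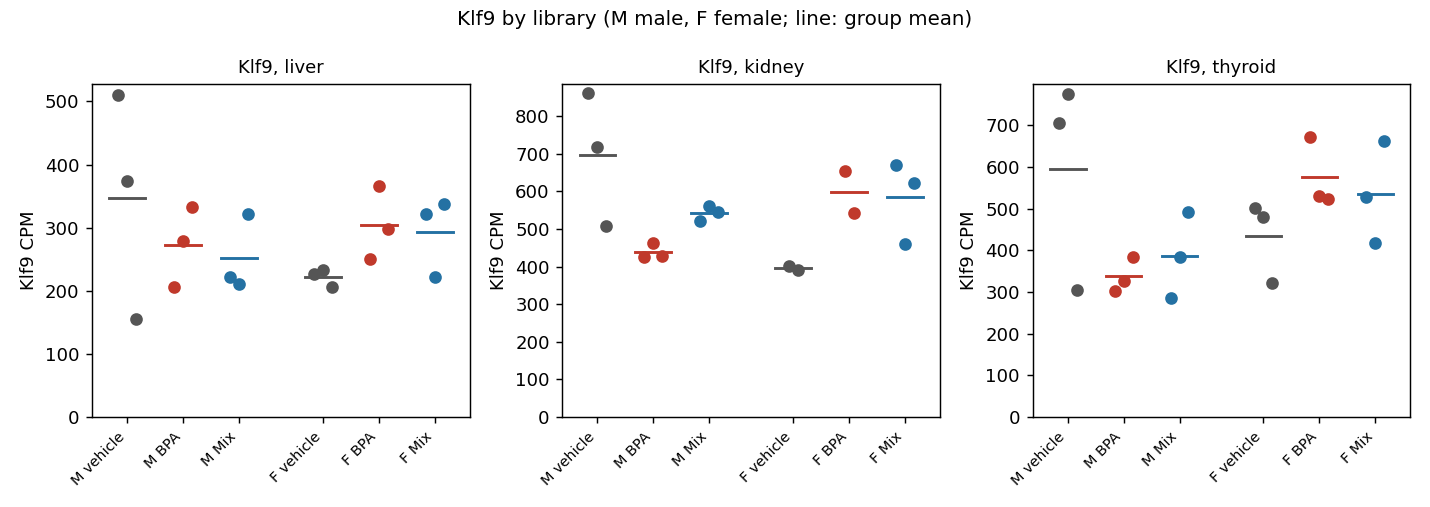
Klf9 CPM in each library of liver, kidney and thyroid (M male, F female), with a line at the group mean. In kidney the BPA males (426 to 464 CPM) lie below their vehicle rats and the BPA females (543 and 655 CPM) above theirs.

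Klf9 in liver and thyroid did not pass. These organs come from the same rats as the kidneys, so a like sign in them is not independent, and male vehicle replicate 3 was the lowest vehicle male in each of the 3. Male thyroid was at 705, 775 and 306 CPM with vehicle, 302, 327 and 383 with BPA and 286, 385 and 491 with Mix. Female thyroid was at 502, 480 and 321 CPM with vehicle, 673, 530 and 524 with BPA and 527, 418 and 662 with Mix. The female minus male effect of BPA in thyroid was 1.33 ± 0.44 (adjusted p = 0.233, background 0%), and in liver 0.81 ± 0.43 (adjusted p = 0.587). Male vehicle liver was wide, at 511, 375 and 156 CPM, and female vehicle liver narrow, at 226, 233 and 206. The sex difference of -0.72 ± 0.30 (adjusted p = 0.230) became -1.08 and passed without male vehicle replicate 3 (0.0153), and was 0.0038 with the ribosomal share as covariate (0.999). That library had 23.4% ribosomal counts, against 2.72% and 2.50% in the other male vehicle livers. Female BPA liver was at 250, 366 and 297 CPM, above vehicle by 0.46 ± 0.21 (adjusted p = 0.419). Ovary with BPA was at 271, 265 and 298 CPM against 229, 221 and 169 with vehicle, a difference of 0.43 ± 0.17 (adjusted p = 0.147). Testis held 87.2 to 125 CPM in all groups.

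Because Klf9 also answers glucocorticoids and the clock, genes of both were read in the same libraries. Under BPA, where Klf9 differed between the sexes in kidney, edgeR called none of the glucocorticoid-induced genes in kidney or thyroid. In kidney the list median was -0.635 in males, with 1 of 6 genes above 0, and 0.169 in females, with 4 of 6. The female minus male effect of BPA on the list had a median of 0.646 in kidney, with 6 of 7 genes above 0 and 3 at an unadjusted p below 0.05, against -0.027 and 23.6% over all genes. In thyroid the list lay below 0 in males for all 6 genes tested (median -0.712) and above 0 in females for all 6 (median 1.208). The difference there had a median of 1.793, with 5 of 6 at an unadjusted p below 0.05, against 0.039 and 17% over all genes. The male BPA thyroids in that difference held germ cell markers at 16.0 to 17890 CPM, whose part was not tested. In male liver with Mix 3 of 7 glucocorticoid-induced genes tested fell and none rose, with a list median of -0.99 against -0.002 over all genes. Of all genes 0.321% were called in that comparison. Zbtb16, a zinc finger factor gene, was at 30.3, 30.3 and 15.2 CPM with vehicle and 1.25, 0.792 and 0.605 with Mix, and fell by 4.83 ± 0.51 (adjusted p = 0.000599). Tsc22d3, which encodes the leucine zipper protein GILZ, fell by 2.47 ± 0.27 (adjusted p = 0.000676), and Fkbp5, a co-chaperone of the glucocorticoid receptor, fell by 1.87 ± 0.32 (adjusted p = 0.0185). Klf9 in those livers was at 222, 210 and 322 CPM against 511, 375 and 156, a difference of -0.47 ± 0.34 (adjusted p = 0.894). The clock repressor gene Nr1d1 rose there by 3.26 ± 0.50 (adjusted p = 0.00872), 1 of 8 clock genes tested. In male kidney Nr1d1 rose with Mix by 2.16 ± 0.25 (adjusted p = 0.00814) and Dbp, counted in the hormone-responsive list, by 2.19 ± 0.17 (adjusted p = 0.000331). Pearson's r with Klf9 over kidney libraries was 0.104 in males and 0.145 in females for Tsc22d3, and 0.423 and 0.488 for Fkbp5. It was 0.337 and -0.516 for Zbtb16, 0.41 and 0.403 for Sgk1, and -0.049 and 0.718 for Dbp. In thyroid r ran from 0.191 (Sgk1, males) to 0.776 (Tsc22d3, females) for these list genes. For Dbp it was 0.01 and -0.583 there. In liver r in males and females was 0.473 and 0.738 for Tsc22d3, 0.623 and 0.563 for Fkbp5 and 0.321 and 0.542 for Zbtb16. It was -0.152 and -0.126 for Sgk1 and -0.175 and 0.425 for Dbp in liver. Results of the clock list under BPA are not reported here. The part of glucocorticoids in the Klf9 values was not tested.

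Thrsp was the other response gene low in treated female liver. Vehicle females were at 399, 403 and 442 CPM, BPA females at 126.4, 188.7 and 272.7 and Mix females at 174, 347 and 327. Both treated groups lay below vehicle without overlap. The log2 differences were -1.08 ± 0.29 for BPA (interval -1.69 to -0.47, adjusted p = 0.135) and -0.55 ± 0.28 for Mix (adjusted p = 0.786). With DESeq2 the BPA difference passed (adjusted p = 0.0182), and with no filter on low counts too (adjusted p = 0.00133). The other alternatives, among them each library left out, left it uncalled. Male liver was at 148, 230 and 130 CPM with vehicle, 122.7, 111.1 and 289.3 with BPA and 114.6, 126.3 and 133.3 with Mix, all overlapping, and the female minus male effect of BPA was -1.12 ± 0.47 (adjusted p = 0.475). Vehicle females were higher than vehicle males by 1.21 ± 0.34 (adjusted p = 0.0419). That call was lost without male vehicle 1 or 3 (adjusted p = 0.172 and 0.131), female vehicle 1, 2 or 3 (0.0787, 0.0945 and 0.120), male Mix 2 or 3 (0.0503 and 0.0512) or female Mix 3 (0.0503). Adipoq, the adiponectin gene of fat cells, was at 0 in all 9 female livers.

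In kidney Thrsp was low except in 2 female rats. Male kidneys ran from 1.72 to 17.4 CPM. Female vehicle kidneys were at 3.64 and 5.12 CPM, BPA at 83.8 and 1.34 and Mix at 0.983, 339 and 7.56. In the same order Adipoq was at 3.64 and 8.69 with vehicle, 26.0 and 14.1 with BPA and 9.83, 125.6 and 12.0 CPM with Mix, so the library highest in Thrsp was highest in this fat marker. The summed adipocyte markers of female kidney were 51.6 to 117 CPM with vehicle, 35.6 to 122 with BPA and 34.1 to 738 with Mix. Thyroid carried much Thrsp, from 599 to 2962 CPM over all libraries. Female vehicle thyroids were at 867, 2333 and 2962 CPM with Adipoq at 106, 285 and 627, BPA thyroids at 825, 2382 and 1302 with Adipoq at 53.9, 176.3 and 126.7, and Mix thyroids at 599, 1507 and 869 with Adipoq at 45.6, 174 and 78.4. Within each of these female groups the order of Thrsp was that of Adipoq. Male thyroids did not follow it: vehicle libraries held Thrsp at 1545, 1501 and 1123 CPM with Adipoq at 91.0, 148.9 and 164.5, the reverse order, BPA libraries Thrsp at 931, 1931 and 1154 with Adipoq at 144.5, 177.5 and 73.0, and Mix libraries Thrsp at 1096, 919 and 662 with Adipoq at 41.6, 78.0 and 40.5. The part of fat RNA in the Thrsp values was not tested. In ovary Thrsp was at 4.98, 13.4 and 3.75 CPM with vehicle and 2.21, 2.77 and 0.319 with Mix (adjusted p = 0.130, and 0.0374 with the replicate block).

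Mix and BPA at the same total dose gave no called difference in any member in the 8 organs of a sex or the 3 organs of both sexes. Over both sexes in liver the Mix minus BPA difference was 0.19 ± 0.19 for Dio1 (interval -0.20 to 0.57), -0.01 ± 0.26 for Thrsp (interval -0.56 to 0.53), -0.08 ± 0.23 for Klf9 (interval -0.56 to 0.39) and -0.11 ± 0.19 for Ttr (interval -0.50 to 0.29). In female liver alone Dio1 differed by 0.38 ± 0.27 (interval -0.19 to 0.95, adjusted p = 0.859). These intervals leave room for differences of either sign for each gene. The background of Mix against BPA was 0.0103% in male liver, 0% in female liver, 2.93% in male kidney, 0% in female kidney, 0% in male and 0% in female thyroid, 0.775% in testis, and over both sexes 0.0299% in liver, 0.206% in kidney and 0% in thyroid. Further comparisons without a called member had backgrounds of 0.0273% for Mix in male kidney, 0% for Mix in female kidney, 0% for BPA and 0% for Mix in male thyroid, 0% for BPA in female thyroid, 0% for BPA and 0% for Mix in kidney of both sexes, and 0%, 0.0167%, 0% and 0% for BPA, Mix, the sex difference of the Mix effect and the sex difference of vehicle rats in thyroid.

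The other pathway lists leave out the 8 members. In ovary 6.79% of all genes were called with BPA and 9.12% with Mix, and the list counts there are read against these shares. Of 9 genes of deiodination and selenoprotein synthesis tested in ovary, 3 fell and none rose with BPA, with a list median of 0.13 against 0.015 over all genes, of the other sign than the genes that passed, and with Mix 1 fell and 1 rose. With BPA they were the glutathione peroxidase genes Gpx4, which fell by 1.41 ± 0.15 (adjusted p = 0.000632), Gpx3, which fell by 0.97 ± 0.21 (adjusted p = 0.0191), and Gpx1, which fell by 0.73 ± 0.14 (adjusted p = 0.0113). These enzymes remove peroxides and do not deiodinate. Of 5 genes of transport and plasma binding tested in ovary 2 rose with BPA, the amino acid and hormone transporter gene Slc7a8 by 1.02 ± 0.19 (adjusted p = 0.0100) and Crym, which encodes a cytosolic triiodothyronine-binding protein, by 1.36 ± 0.29 (adjusted p = 0.0183). Of 9 receptor partners and coregulators tested in ovary 1 rose with BPA, a share near that of all genes: the coactivator gene Ncoa1, by 0.92 ± 0.25 (adjusted p = 0.0442).

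Among 18 hormone-responsive genes of liver tested in male liver, 1 fell with BPA and none rose, where 0.228% of all genes were called. The gene was Cyp7a1, whose product starts the classic route from cholesterol to bile acids, which fell by 3.78 ± 0.53 (adjusted p = 0.00805). Apart from the member Dio1, no gene of this list, of transport and plasma binding, of deiodination or of conjugation was called in female liver with BPA or Mix. In vehicle liver 4.23% of all genes differed by sex. The conjugating sulfotransferase gene Sult1e1 was at 161 to 295 CPM in male liver and at 0 in all 3 female livers (adjusted p = 2.06e-08). Slc7a5, an amino acid and hormone transporter gene, was higher in female vehicle liver by 2.45 ± 0.60 (adjusted p = 0.0200).

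Genes whose level was most like a member's were ranked by Pearson's r of log2(CPM + 1) over all 70 libraries, as a description in which organ differences dominate. For Dio1 they were Iyd (0.971), Eps8l2 (0.962) and Perp (0.961), for Ttr Rup2 (0.993), Fabp1 (0.993) and Ahsg (0.991), and for Thrsp Stbd1 (0.922), Crip2 (0.921) and Krt18 (0.914). For Klf9 the values were lower, led by Tpcn1 (0.889). Within the 18 livers, with the mean of each sex removed, Slc6a13 was most like Dio1 (0.862), Gamt most like Thrsp (0.877) and Chchd10 most like Klf9 (0.883). Among the members themselves, Dio1 correlated there with Ttr at 0.588 and with Thrsp at 0.502, and with Thra at -0.429.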

How the data were processed

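The deposited table holds counts of reads per gene in 70 QuantSeq 3′ libraries, raw as far as its whole numbers show. The submitters' processing notes name FastQC, Bowtie2, bedtools, edgeR and the build rn6. Versions, strand and the handling of reads with several matches are not given in the sources used here. Each organ and sex was fitted with its 3 treatments in edgeR 4.0.16 (R 4.3.3): filterByExpr (minimum count 10), TMM scaling, quasi-likelihood test, Benjamini-Hochberg adjustment. Liver, kidney and thyroid were also fitted with both sexes and their interaction. Standard errors are the log2 change over the square root of F, and intervals are 95%. The scripts were tested on simulated data. Members and gene lists were chosen with earlier results of these data known. All members are named, and of each list up to 4 called genes with the smallest p. Alternatives were RLE scaling, DESeq2 1.42.0, no filter, a replicate block, the ribosomal share as covariate, ribosomal rows removed, only the 2 groups compared, plain CPM and each library left out. Litters are not in the labels. No libraries were near duplicates. Promoters are RefSeq's, on GRCr8. Some results of the pathway lists are not reported here.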

Additional observations from a re-analysis of the deposited data

Results flagged for a closer look

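In kidney Klf9 differed from vehicle with BPA by -0.66 on the log2 scale in males and by 0.60 in females, with every BPA library beyond the vehicle range on its side, as held for 34.7% and 44.5% of all genes in these comparisons. The female minus male difference of 1.27 passed the test of the difference itself (edgeR, adjusted p = 0.0311), where 4.73% of all genes did. It was lost with the ribosomal share as covariate (adjusted p = 0.262) and remained called in 9 of 16 fits that left out 1 library.

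On the TMM scale Slc16a10 lay above vehicle in every BPA library of male kidney (0.38), where the ranges of 34.7% of all genes did not overlap. On plain CPM it overlapped, at 20.45, 20.75 and 19.94 with vehicle and 18.4, 21.39 and 20.55 with BPA. It lay below vehicle in every BPA library of male thyroid (-4.41 as fitted, with at most 1 count in each BPA thyroid library), for which that share was not computed. The difference between these organs was not tested.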

How the results depend on the processing

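Members called are counted here. In female liver with BPA (1 called) no low-count filter gave 2, DESeq2 2, and the replicate block, the ribosomal share as covariate and only the 2 groups compared gave 0 each. With no filter female liver with Mix gave 1 in place of 0. Only the 2 groups compared and DESeq2 gave 1 each in male kidney with BPA. DESeq2 gave 1 for male thyroid Mix against BPA, 1 for female thyroid with BPA, 2 for female thyroid with Mix and 1 for ovary Mix against BPA, all 0 otherwise. The ribosomal share gave 0 in place of 1 for ovary with BPA and for the sex difference of the BPA effect in kidney. The replicate block gave 1 in place of 0 for ovary with Mix and 0 in place of 1 for liver of both sexes with BPA. The cause was not tested. Leaving out 1 library gave 0 to 1 for these counts of female liver BPA, male kidney BPA, female thyroid BPA and Mix, ovary BPA and Mix, liver of both sexes BPA, the kidney sex difference of BPA and of vehicle rats, and 0 to 2 for the liver difference between sexes. Klf9 in vehicle liver went from -0.72 to 0.0038 with the ribosomal share as covariate. RLE scaling and removed ribosomal rows changed no count. Replicate numbers do not pair the samples: same-numbered samples' deviations correlated at -0.440 to 0.314, and in no organ and sex were all pairs over 0.1. Where an uncalled difference passed in named alternatives, the other refits left it uncalled. With 3 rats a group, a miss of the threshold says little, and Dio2 lay near the level of a few counts.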
